A study of Mus musculus with 2 samples.

Results

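The genes described here are 8 of the 32285 in the deposited matrices, picked by symbol and not by their values. They are Tgfb1, Itgb8, Tgfbr1, Tgfbr2, Smad3 and Smad7 of the TGF-beta pathway, and Il10 and Il10ra of the interleukin-10 pathway. They were measured by droplet single-cell RNA sequencing (10x Genomics 3' v3.1) in leukocytes of pancreatic islets from NOD mice, an inbred strain that develops autoimmune diabetes. The study has 2 libraries, 1 from WT NOD females and 1 from females labelled NOD.Cxcl16-/-, all aged 12 weeks, with Cxcl16 encoding a chemokine that binds CXCR6. Islets were released from the pancreas with collagenase, picked by hand, dispersed without enzymes and sorted for live CD45+CD31- cells. How many animals were pooled, and which part of Cxcl16 was deleted, are not given in the sources used here. Each group is 1 library, so no difference between the libraries could be tested, and every interval below is at the 95% level and covers counting error only. Pairs of values are given with the WT NOD library first and the library labelled NOD.Cxcl16-/- second.

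TGF-beta 1 is secreted as a latent complex, and integrins that contain the alpha V chain, among them alpha V beta 8, release the active cytokine from it. Active TGF-beta binds the type II receptor kinase, which recruits and phosphorylates the type I kinase. That kinase in turn activates SMAD2 and SMAD3, while SMAD7 is induced as an inhibitor of the receptors. Interleukin-10 signals through a ligand-binding chain and a shared chain to JAK1, TYK2 and STAT3, and is known for restraining macrophages and dendritic cells. Regulatory T cells (Tregs), which are defined by the transcription factor FOXP3, are a known source of both cytokines in tissues under autoimmune attack.

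The upstream sequences of the ligand gene and of both receptor genes are shown here because these 3 genes act at the same step and yet had their highest levels in different gated cell classes. No link between these sequences and the levels was tested. They are the 250 bases before the transcription start, from RefSeq on GRCm38.p6, which is the reference strain and not NOD. RefSeq entries matched 5 of the 8 genes, all but Smad7, Il10 and Il10ra. Capitals mark matches on either strand to GGGCGG, the GC box bound by SP1-type factors, or to CAGAC, the SMAD box, and no marked match overlaps another.
Tgfb1, chr7:25686752-25687001, plus strand: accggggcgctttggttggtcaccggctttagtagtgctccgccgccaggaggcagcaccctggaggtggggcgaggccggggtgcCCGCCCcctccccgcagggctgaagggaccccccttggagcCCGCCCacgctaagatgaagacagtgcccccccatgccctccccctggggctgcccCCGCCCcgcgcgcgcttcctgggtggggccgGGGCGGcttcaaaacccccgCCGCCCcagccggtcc
Tgfbr1, chr4:47352972-47353221, plus strand: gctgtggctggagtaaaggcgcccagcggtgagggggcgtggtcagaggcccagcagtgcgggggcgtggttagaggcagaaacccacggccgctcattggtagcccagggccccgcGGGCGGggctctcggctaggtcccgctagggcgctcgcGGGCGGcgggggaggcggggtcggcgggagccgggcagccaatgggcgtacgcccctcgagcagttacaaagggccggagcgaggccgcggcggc
Tgfbr2, chr9:116175364-116175613, minus strand: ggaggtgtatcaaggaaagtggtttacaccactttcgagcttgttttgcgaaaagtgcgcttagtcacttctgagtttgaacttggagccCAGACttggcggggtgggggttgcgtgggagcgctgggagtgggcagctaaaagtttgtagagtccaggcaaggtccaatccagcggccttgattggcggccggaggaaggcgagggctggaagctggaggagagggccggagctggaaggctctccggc
The Tgfb1 window held 5 GC boxes and 21 CpG dinucleotides at 75.2% G and C. The Tgfbr1 window held 2 GC boxes and 29 CpG dinucleotides at 74.8%. RefSeq gives Tgfbr1 a further start inside the gene, whose window (chr4:47385966-47386215) held 1 SMAD box, no GC box and 3 CpG dinucleotides at 52.8%, and which is not printed. The Tgfbr2 window was poorer in both than the printed Tgfbr1 window, with 12 CpG dinucleotides at 58.4%, and it held 1 SMAD box and no GC box. Of 32851 RefSeq windows of the same length, 32.7% held a GC box and 42.2% a SMAD box, and the median was 52.4% G and C with 6 CpG dinucleotides. None of these 3 windows held the other motifs searched. The AP-1 motif TGANTCA occurs in 6.75% of all windows and the E-box CACCTG in 17.2%. The cAMP response motif TGACGTCA occurs in 1.55% and the TATA box TATAAA in 12.4%.

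On GRCm38 (GENCODE M21) the ligand gene Tgfb1 (ENSMUSG00000002603) lies on the plus strand of chromosome 7 from 25687002 to 25705077. Tgfbr1 (ENSMUSG00000007613) spans 47353222 to 47414931 on the plus strand of chromosome 4. Tgfbr2 (ENSMUSG00000032440) spans 116084293 to 116175360 and Smad3 (ENSMUSG00000032402) 63646767 to 63757994, both on the minus strand of chromosome 9. Itgb8 (ENSMUSG00000025321) lies on the minus strand of chromosome 12 from 119158022 to 119238802, and Smad7 (ENSMUSG00000025880) on chromosome 18. Il10 (ENSMUSG00000016529) spans 131019845 to 131024974 on the plus strand of chromosome 1. Il10ra (ENSMUSG00000032089) spans 45253837 to 45269149 on the minus strand of chromosome 9, where it overlaps Mir7086 on its own strand and Gm20612 on the other. The other 7 genes overlap no annotated gene.

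After filtering, 10960 and 9358 cells remained, at medians of 4180.5 and 5001.5 UMIs (unique transcript molecules). Each cell was assigned from fixed markers to a class, called by its marker pattern and meant as "-like" throughout. Of 15 classes, 13 had at least 50 cells in both libraries. They include 282 and 416 Treg cells, 1318 and 1306 CD4 T cells without a FOXP3 transcript, 2671 and 1543 CD8 T cells, 1758 and 2071 B cells and 77 and 182 macrophages. The class called the remaining T cells holds 2481 and 1534 T cells that met none of the Treg, CD4, CD8 and gamma-delta gates. A further 916 and 803 barcodes carried markers of more than 1 lineage and were left out of the classes as mixed, and 45 barcode sequences occurred in both libraries. Foxp3 stood at 256 and 244 CPM (UMIs of the gene scaled to all UMIs of the class) in Treg cells and is at 0 in CD4 T cells by construction of the class. Cxcl16 transcript was present in the library labelled NOD.Cxcl16-/-, at 814 and 510 CPM in macrophages and 777 and 430 CPM in migratory dendritic cells (DC). Taken alone this would go against the label, but the deleted part is not known, and 3' tags outside it check nothing. The label was therefore neither borne out nor contradicted. It alone names that library here, and no direction below is assigned to the genotype.

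All 8 genes were detected in both libraries, from 613 and 845 UMIs over all kept cells for Itgb8 to 12941 and 12766 for Smad7. The integrin gene and Il10 were concentrated in a few classes, whereas Tgfb1, Smad7 and Tgfbr2 were read in all 13. The lowest class stood at 21.3 and 20.8 CPM for Tgfb1, against a median over classes of 148 and 145 CPM. For Itgb8 and Il10 some classes held no UMI at all in either library.

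**Figure D1:**
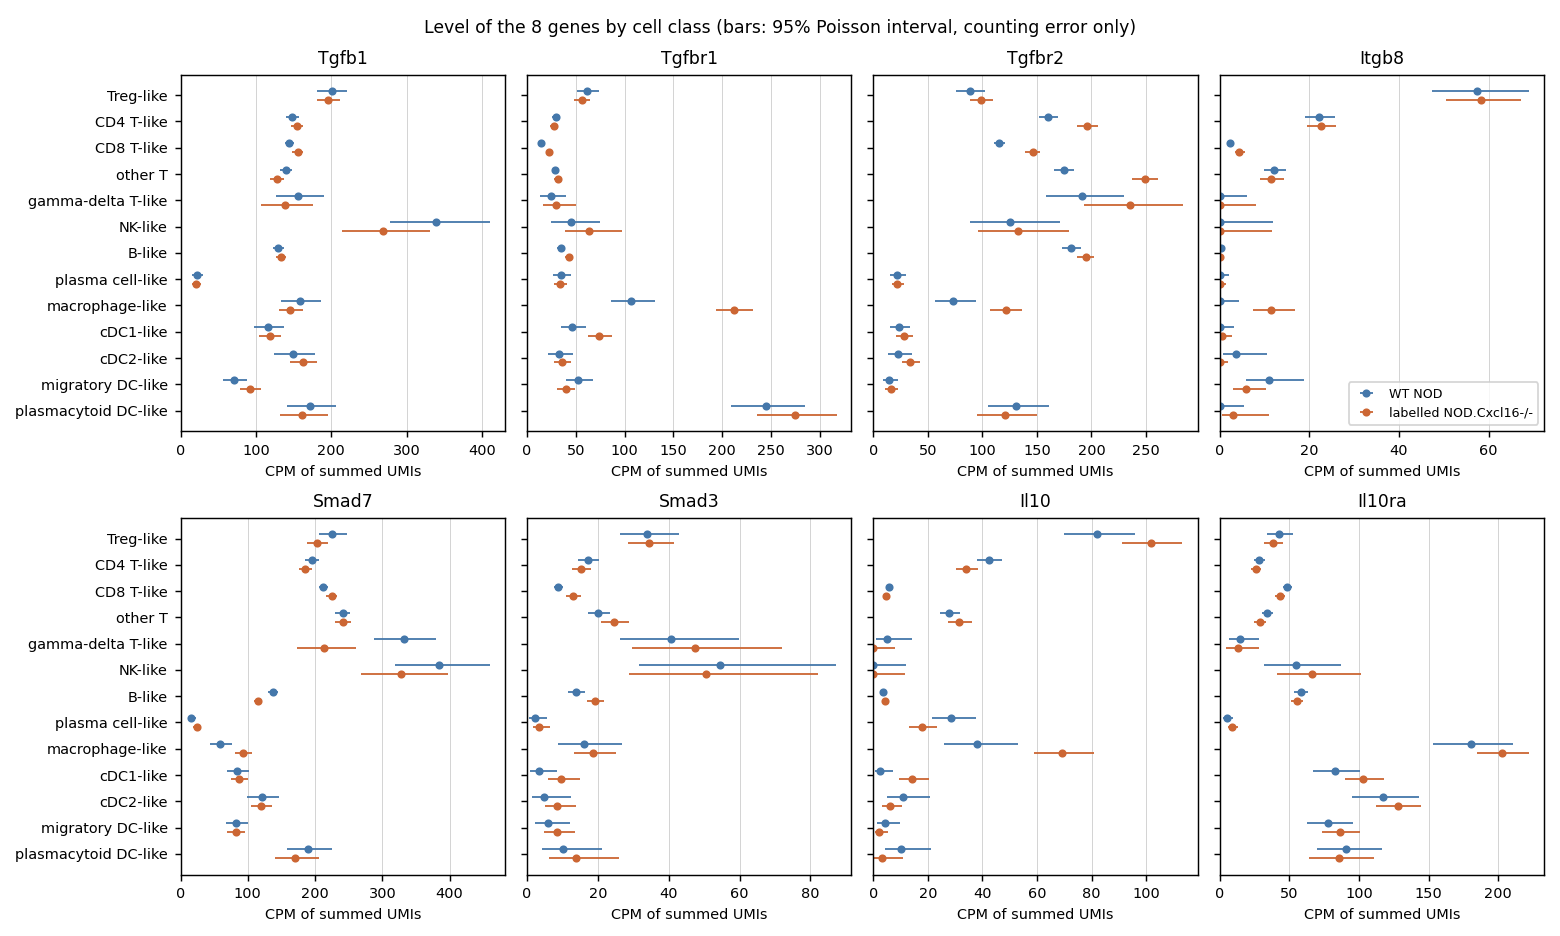
Level of each of the 8 genes (CPM of summed UMIs, 1 panel per gene) in the 13 cell classes with at least 50 cells per library. Points are the 2 libraries and bars the 95% Poisson interval. Tgfb1 and Smad7 are spread over all classes, Itgb8 and Il10 are highest in Treg cells, Tgfbr1 in plasmacytoid DC and Il10ra in macrophages.

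The ligand gene Tgfb1 was highest in NK cells, at 340 CPM (278 to 411) and 268 CPM (214 to 332), and next in Treg cells, at 201 CPM (181 to 221) and 196 CPM (181 to 211). In both libraries the intervals of these gated classes did not overlap. This order depended on the gate: over joint clusters (401 and 349 NK-like cells) NK cells held 226 CPM (207 to 247) and 211 CPM (191 to 232), and Treg cells 210 CPM (191 to 229) and 217 CPM (201 to 234). CD4 T cells held 148 and 155 CPM, CD8 T cells 145 and 155 CPM, macrophages 158 and 145 CPM and B cells 129 and 133 CPM. These classes lay close together, so transcripts of the ligand were not limited to regulatory cells. Migratory DC (71.0 and 92.2 CPM) and plasma cells (21.3 and 20.8 CPM) stood lowest, and the step between them exceeded the counting intervals in both libraries. The plasma cell cluster held 47.6 and 51.7 CPM. The small monocyte class, with 24 and 17 cells, held 269 and 296 CPM. A CPM is a share of all UMIs of the class. Gated plasma cells had medians of 23717 and 26269 UMIs, against 4534.5 and 4616 in B cells, with Jchain and immunoglobulin genes leading. The part of this in the low plasma cell CPM, for Tgfb1 and the other genes below, was not tested.

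Within T cells, Tgfb1 was higher where naive markers were few. CD4 T cells with at most 1 naive marker held 1.88 and 2.05 times the CPM of naive-like CD4 T cells. CD8 T cells with at most 1 naive marker stood at 218 and 218 CPM, against 85.1 and 99.4 CPM in naive-like CD8 T cells. Naive markers were counted without thinning, and the subsets differed in depth. At least 2000 UMIs were held by 569 of 899 and 447 of 501 CD8 T cells with at most 1 naive marker. Among naive-like CD8 T cells they were held by 686 of 718 and 543 of 554. The part of depth in this split, here and below, was not tested. In Tgfb1, Treg cells exceeded CD4 T cells by 1.35- and 1.26-fold. After each cell was thinned to 2000 UMIs, a Tgfb1 UMI was found in 32.0% and 30.7% of Treg cells and in 25.4% and 22.7% of CD4 T cells. Lrrc32, whose product GARP displays latent TGF-beta on the Treg surface, stood at 21.2 and 26.9 CPM in Treg cells and at 2.41 and 2.09 CPM in CD4 T cells. Nrros, which encodes a similar anchor of myeloid cells, stood at 98.7 and 112 CPM in macrophages and 86.6 and 92.2 CPM in B cells. Tgfb3, the gene of another TGF-beta isoform, reached 4.83 and 6.16 CPM in B cells.

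Itgb8, the beta 8 chain that pairs with alpha V to release active TGF-beta, had its highest level in Treg cells. It stood at 57.5 CPM (47.4 to 69.0) and 58.3 CPM (50.4 to 67.2) in Treg cells, 22.2 CPM (19.0 to 25.7) and 22.6 CPM (19.6 to 26.0) in CD4 T cells and 12.1 and 11.3 CPM in the remaining T cells. Each of these steps exceeded the intervals in both libraries. The Treg level was 2.59 times (2.03 to 3.30) and 2.58 times (2.10 to 3.16) that of CD4 T cells. Gamma-delta T cells, NK cells and plasma cells held no Itgb8 UMI, and B cells held 3 and 1. Alpha-beta T cells together held 70.1% and 60.9% of all Itgb8 UMIs of kept cells, and mixed barcodes 21.2% and 27.8%. By amount, CD4 T cells held more of these UMIs (28.5% and 23.1%) than Treg cells did (18.6% and 22.8%). A thinned UMI of Itgb8 was found in 11.7% and 13.9% of Treg cells (26 and 12 shallower cells left out) at median depths of 4738 and 4987.5 UMIs. In B cells, at 4534.5 and 4616 UMIs, the share was 0% and 0%.

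Among Treg cells Itgb8 stood at 113 and 87.9 CPM in those with at most 1 naive marker and at 29.8 and 48.9 CPM in those with at least 3. Its partner chain Itgav was also highest in Treg cells, at 252 and 258 CPM, against 91.6 and 129 CPM in CD4 T cells. In single Treg cells thinned to 2000 UMIs, Itgav was detected in 56.7% (37.4 to 74.5) and 62.5% (48.5 to 75.1) of those with an Itgb8 UMI (30 and 56 cells). The shares in the rest were 27.9% (22.1 to 34.2) and 36.8% (31.7 to 42.1). Tnfrsf9, an activation receptor of the TNF family, was detected in 66.7% and 62.5% against 39.8% and 40.5%. The inhibitory receptor gene Lag3 was detected in 50% and 53.6% against 19.9% and 28.4%. Klf2, a factor of resting recirculating T cells, ran the other way, with 3.3% and 8.9% against 31.4% and 25.3%. These genes were picked from a longer list, on which others changed direction between the libraries. Among those were Prdm1 (13.3% and 5.4% against 11.5% and 12.9%) and Ccr7 (23.3% and 28.6% against 25.2% and 20.7%). Tgfb1 was detected in 33.3% and 50% of Treg cells with an Itgb8 UMI, against 31.9% and 27.6%. CD4 T cells with an Itgb8 UMI (51 and 52 cells) had Itgav in 37.3% and 30.8%, against 13.9% and 17.5% of the others, and Tgfb1 in 47.1% and 42.3%, against 24.5% and 21.8%.

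**Figure D2:**
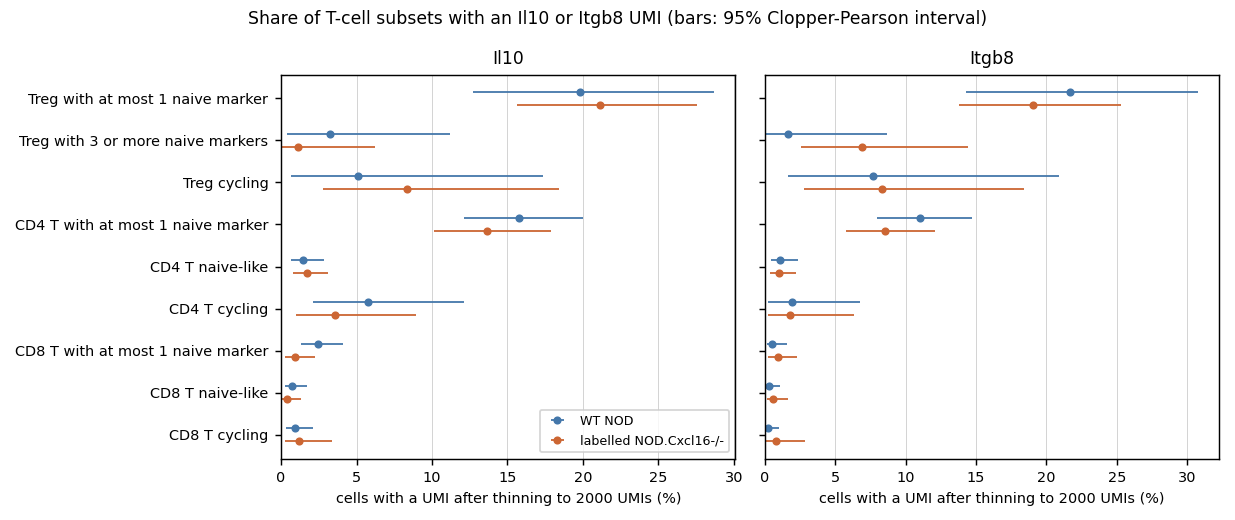
Share of cells with a UMI of Il10 or Itgb8 (percent, after thinning) in subsets of Treg, CD4 T and CD8 T cells. Subsets are split by their naive markers and by cycling genes. Points are the 2 libraries and bars the 95% Clopper-Pearson interval. Both genes are detected more often in CD4 T and Treg cells with at most 1 naive marker than in those with at least 3.

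The receptor chains had different maps. Tgfbr1, the signalling type I kinase, was highest in plasmacytoid DC, at 245 CPM (209 to 285) and 274 CPM (235 to 317), where a thinned UMI was found in 49.2% and 48.1% of cells. Macrophages followed at 107 CPM (86.1 to 131) and 212 CPM (194 to 232), beyond the intervals of the remaining 11 classes in both libraries. Over joint clusters plasmacytoid DC held 143 and 218 CPM and macrophages 83.6 and 119 CPM, and the macrophage and Treg intervals overlapped in the WT NOD library. Treg cells held 61.5 and 55.9 CPM, cDC1, the conventional DC that cross-present antigen, 46.6 and 73.9 CPM, and CD8 T cells 14.4 and 22.3 CPM. Treg cells exceeded CD4 T cells by 2.07- and 2.05-fold.

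Tgfbr2, the ligand-binding type II kinase, was instead highest in lymphocytes. Gamma-delta T cells held 192 and 235 CPM and the remaining T cells 175 and 249 CPM, so the class that led differed between the libraries. B cells held 181 and 195 CPM, CD4 T cells 160 and 196 CPM and CD8 T cells 116 and 146 CPM. CD4 T cells lay above CD8 T cells beyond the intervals in both libraries. Over joint clusters CD4 T cells led, at 222 and 250 CPM, and gamma-delta T cells held 213 and 162 CPM. Treg cells were lower than CD4 T cells, at 88.7 and 98.8 CPM, a ratio of 0.554 and 0.504. Conventional and migratory DC were at the bottom with plasma cells, at 23.0 and 33.8 CPM in cDC2, 23.3 and 27.7 CPM in cDC1 and 14.4 and 15.8 CPM in migratory DC. The naive-like CD4 T cells held 249 and 302 CPM, and CD4 T cells with at most 1 naive marker 130 and 149 CPM. In Treg cells the same split gave 162 and 157 CPM with at least 3 naive markers and 50.7 and 102 CPM with at most 1. Across the 26 class levels of both libraries the Pearson correlation between Tgfbr1 and Tgfbr2 was -0.03, a description over points that share libraries.

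Smad7, the receptor inhibitor, was widely present and highest in NK cells, at 385 CPM (319 to 460) and 328 CPM (268 to 398). Gamma-delta T cells held 331 and 214 CPM, Treg cells 226 and 203 CPM, CD8 T cells 212 and 225 CPM and B cells 137 and 116 CPM. Plasma cells were lowest, at 15.7 and 24.3 CPM, and macrophages lay above them beyond the intervals in both libraries, at 58.5 and 93.5 CPM. Over joint clusters plasma cells held 53.5 and 43.3 CPM and macrophages 139 and 121 CPM. The limit given above for plasma cell CPM applies here too. Over the 26 class levels Smad7 followed the ligand gene Tgfb1 (Pearson correlation 0.87).

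Smad3, the receptor-activated transcription factor, was at or under 54.5 CPM in each of the 13 gated classes. It stood at 54.5 and 50.5 CPM in NK cells, 40.6 and 47.5 CPM in gamma-delta T cells and 33.8 and 34.5 CPM in Treg cells, and at 2.25 and 3.47 CPM in plasma cells. The small class of ILC2, with 17 and 55 cells, stood higher, at 106 CPM (8 UMIs) and 68.7 CPM (18 UMIs). Among the 13 gated classes none was separated from the next in order in both libraries. Over joint clusters gamma-delta T cells held 83.2 CPM (60.7 to 111) and 86.5 CPM (63.8 to 115), above NK cells at 46.5 CPM (37.9 to 56.5) and 47.1 CPM (38.1 to 57.7), so the order of these classes and the overlap depended on the gate. Treg cells exceeded CD4 T cells by 1.97- and 2.27-fold. The class levels of Smad3 followed Smad7 and Tgfbr2 with correlations of 0.79 and 0.75.

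Il10 was led by Treg cells, at 82.2 CPM (70.0 to 95.8) and 102 CPM (91.3 to 113). Among the other 12 classes of at least 50 cells the highest levels were 37.9 CPM (26.1 to 53.2) and 69.2 CPM (58.8 to 80.9) in macrophages, and 42.3 and 34.1 CPM in CD4 T cells. The remaining T cells held 27.8 and 31.5 CPM and plasma cells 28.6 and 17.7 CPM. The small monocyte class held 17 and 5 UMIs, or 80.3 and 26.9 CPM. B cells stood at 3.44 and 4.10 CPM, those with a transcript of Bhlhe41 or Zbtb32 at 6.40 and 11.3 CPM, and NK cells held no UMI. The step from Treg cells to macrophages exceeded the intervals in both libraries. Treg cells held 1.94 times (1.60 to 2.35) and 2.99 times (2.55 to 3.5) the level of CD4 T cells.

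By amount, CD4 T cells held more Il10 than Treg cells in the WT NOD library and less in the library labelled NOD.Cxcl16-/-. Of all Il10 UMIs of kept cells, CD4 T cells held 23.9% and 15.4%, Treg cells 11.7% and 17.6% and the myeloid classes together 5.29% and 10.9%. Mixed barcodes held 21.1% and 31.7%, which could not be given to a class. A thinned Il10 UMI was found in 13.7% and 13.4% of Treg cells, 6.42% and 5.13% of CD4 T cells, 7.14% and 11.3% of macrophages and 0.488% and 0.648% of B cells. Median depths were 12330 and 11660 UMIs in macrophages before thinning, and 7 and 14 macrophages were too shallow to enter.

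**Figure D3:**
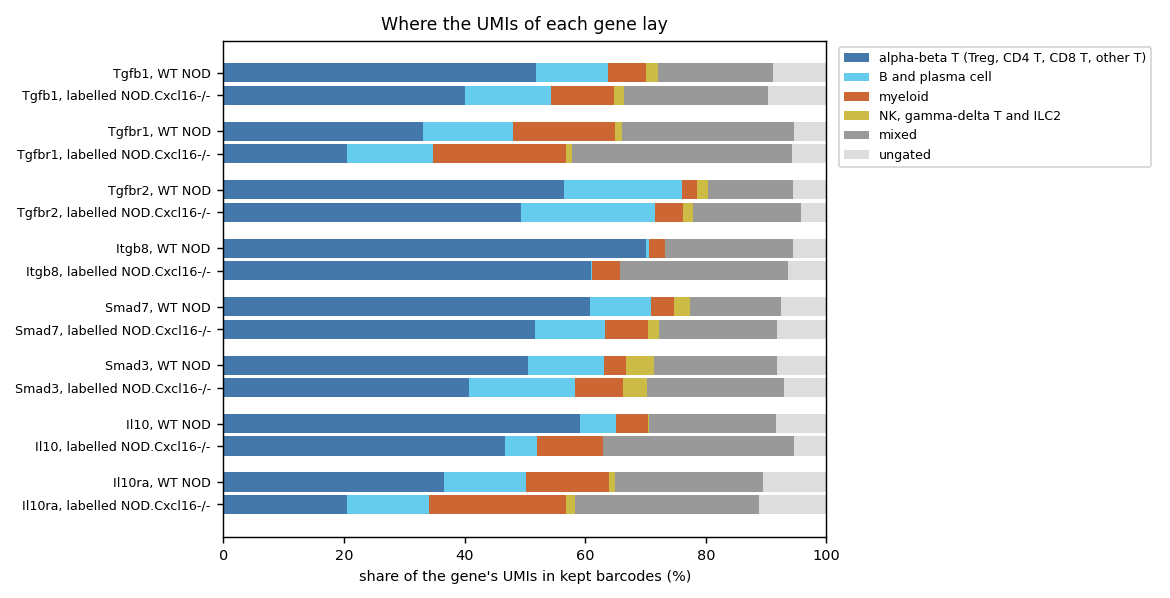
Share of all UMIs of each gene (percent, horizontal stacked bars from 0 to 100) held by groups of cell classes, by mixed barcodes and by ungated cells in each library. Alpha-beta T cells hold 59.2% and 46.8% of Il10 UMIs and 70.1% and 60.9% of Itgb8 UMIs, while myeloid cells hold 13.7% and 22.8% of Il10ra UMIs.

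Il10 UMIs were unevenly spread over cells. The 5% of CD4 T cells with the most UMIs held 79.6% and 88.1% of that class's Il10 UMIs, against 52.8% and 45.7% in Treg cells and 36.4% and 43.9% in macrophages. Any Il10 UMI was found, without thinning, in 9.71% and 7.66% of CD4 T cells, 24.8% and 27.9% of Treg cells and 28.6% and 29.7% of macrophages, so the share for CD4 T cells is set in large part by the few cells with a UMI. CD4 T cells with at most 1 naive marker stood at 115 and 110 CPM, 8.93 and 7.70 times the level of naive-like CD4 T cells. Treg cells with at most 1 naive marker stood at 162 and 208 CPM, above every other subset examined, and cycling Treg cells at 23.1 and 39.7 CPM.

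The CD4 T cells with a thinned Il10 UMI (77 and 65 cells) were compared with the rest for 26 genes. In 20 of these the shares differed in the same direction in both libraries, in 5 (Tnfrsf9, Gzmb, Itgae, Il10ra and Smad7) in opposite directions, and in 1 there was no difference in 1 library. Maf, a transcription factor known to drive Il10 in T cells, was detected in 83.1% (72.9 to 90.7) and 70.8% (58.2 to 81.4) of them and in 38.7% (35.9 to 41.7) and 35.0% (32.3 to 37.7) of the others. Lag3 was detected in 61.0% and 50.8% against 18.5% and 15.2%, and Prdm1, which encodes the factor BLIMP1, in 23.4% and 24.6% against 6.6% and 6.4%. Ikzf2, a Treg-associated factor, was detected in 49.4% and 67.7% against 21.9% and 21.0%. Klf2 was detected in 13.0% and 12.3% against 48.3% and 42.5%.

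Part of this class lay with the Treg cells by transcriptome. In a joint clustering, 65 and 65 CD4 T cells (4.93% and 4.98%) fell in the cluster with Treg markers, and they held 9.88% and 19.7% of the class's Il10 UMIs and 24.6% and 19.5% of its Itgb8 UMIs. Outside that cluster the CD4 T cells still held 40.1 and 28.8 CPM of Il10 and 17.6 and 19.2 CPM of Itgb8. In Treg cells with a thinned Il10 UMI (35 and 54 cells), Maf was detected in 68.6% and 87.0%, against 56.1% and 60.0% of the others. Lag3 was detected in 25.7% against 23.1% in the WT NOD library and in 66.7% against 26.6% in the library labelled NOD.Cxcl16-/-.

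**Figure D4:**
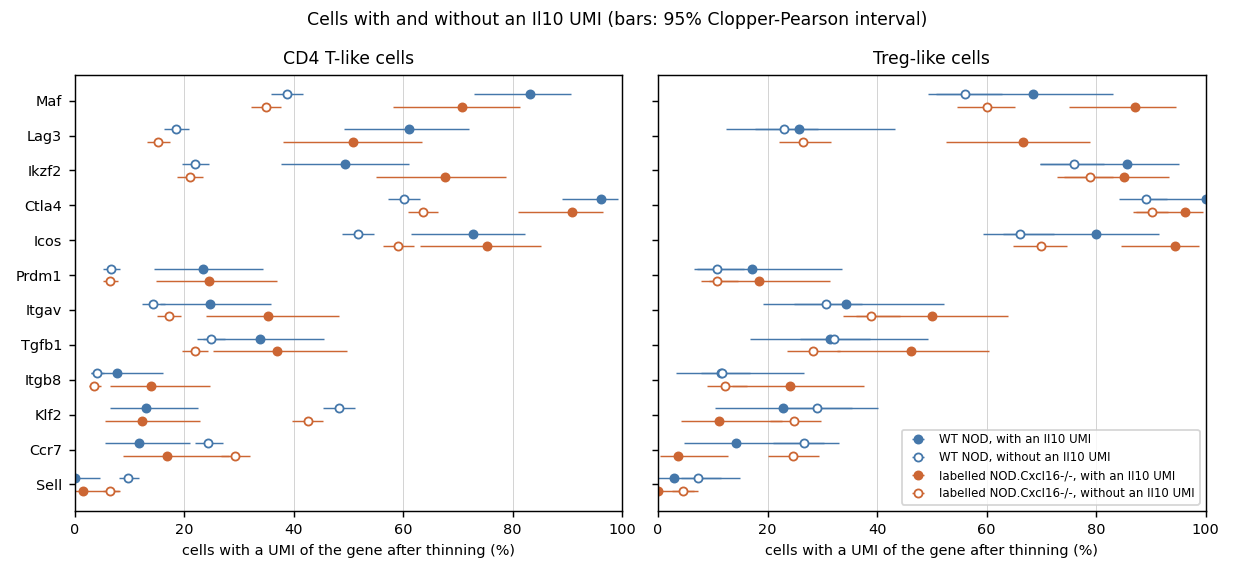
Share of cells with a UMI of each listed gene (percent, after thinning to 2000 UMIs) in CD4 T and Treg cells with and without an Il10 UMI, in each library; bars are the 95% Clopper-Pearson interval. In CD4 T cells Maf, Lag3 and Ikzf2 are detected more often, and Klf2 less often, in cells with an Il10 UMI in both libraries.

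The ligand-binding receptor chain Il10ra had its highest levels in myeloid cells. Macrophages held 180 CPM (153 to 211) and 203 CPM (185 to 222), cDC2 117 and 128 CPM, cDC1 82.4 and 103 CPM and migratory DC 77.8 and 86.5 CPM. The step from macrophages to cDC2 exceeded the intervals in both libraries, also over joint clusters, where macrophages held 131 and 119 CPM, whereas cDC1 and migratory DC overlapped. B cells followed at 58.1 and 55.3 CPM and CD8 T cells at 48.3 and 42.9 CPM. Treg cells held 42.3 and 38.4 CPM, 1.5 and 1.5 times the level of CD4 T cells, and plasma cells only 5.05 and 8.66 CPM. CD8 T cells with at most 1 naive marker stood at 69.0 and 65.5 CPM, against 26.1 and 21.2 CPM in naive-like ones. The small classes of ILC2 (17 and 55 cells) and monocytes held 212 and 195 CPM and 213 and 194 CPM. Over joint clusters ILC2 (39 and 82 cells) held 139 CPM (89.7 to 205) and 163 CPM (127 to 205). That exceeded the macrophage cluster beyond the intervals in the library labelled NOD.Cxcl16-/- only, where macrophages held 119 CPM (113 to 124).

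The shared chain Il10rb was likewise highest in macrophages, at 111 and 115 CPM, as was Socs3, a feedback inhibitor that STAT3 induces, at 754 and 642 CPM. Macrophages therefore held both the cytokine transcript and its receptor, with Il10 at 11.0 and 16.9 times and Il10ra at 3.10 and 3.67 times the level of B cells. Tgfbr1 in macrophages stood at 3.07 and 4.94 times the B cell level.

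Between the libraries, a ratio was counted as different when it reached 1.5-fold on the log2(CPM + 1) scale with at least 20 UMIs over both. This is a size rule, not a test. It could be applied to 90 of the gene and class pairs, of which 13 were higher and 4 lower in the library labelled NOD.Cxcl16-/-. In 6 classes no gene passed, and the share of all genes past the fold (higher and lower) is given beside each. In Treg cells 0 of 8 passed, where 11.0% of all genes did (4.45% and 6.57%). In CD4 T cells 0 of 8 passed, against 6.15% of all genes (1.84% and 4.31%), and in the remaining T cells 0 of 8, against 8.92% (2.79% and 6.13%). B cells had 0 of 7, against 6.21% (3.6% and 2.61%), NK cells 0 of 6, against 21.9% (11.5% and 10.4%), and plasmacytoid DC 0 of 5, against 22.9% (13.0% and 9.85%). The main sources of Itgb8 thus held like levels, with a log2 ratio of 0.02 (-0.32 to 0.37) in Treg cells. Il10 in Treg cells had a log2 ratio of 0.31 (0.04 to 0.59) and in CD4 T cells of -0.30 (-0.54 to -0.08), both under the fold used.

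Within subsets of the Treg, CD4 T and B classes some ratios did pass, and the share of all genes past the fold in either direction is given beside each count. Treg cells with at most 1 naive marker had 2 of 8 higher (16.3%), with Tgfbr2 at a log2 ratio of 1.00 (0.39 to 1.68) on 27 and 106 UMIs, and Treg cells with at least 3 naive markers 3 of 8 higher (21.5%), with Il10 at 0.83 (0.02 to 1.72). Cycling Treg cells had 1 higher and 3 lower of 8 (19.9%), with Il10ra at -0.99 (-1.75 to -0.29) and Tgfbr1 at -0.66 (-1.25 to -0.09). Cycling CD4 T cells had 1 higher and 1 lower of 8 (12.8%), Tgfbr2 at 0.66 (0.34 to 1.007) and Il10 at -0.90 (-1.60 to -0.31). Naive-like CD4 T cells had 1 of 8 lower (9.06%) and CD4 T cells with at most 1 naive marker 0 of 8 (13.2%). Follicular-like B cells had 2 of 7 higher (7.08%), with Smad3 at 0.70 (0.31 to 1.18), and none of 6 passed in germinal-centre-like B cells (22.3%) or in B cells with Bhlhe41 or Zbtb32 (16.6%). The counting interval of each of the other 7 ratios that passed in these subsets held 0.

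Some smaller ratios of abundant genes exceeded counting error. Tgfbr2 was higher by 0.51 (0.41 to 0.61) in the remaining T cells, by 0.33 (0.25 to 0.43) in CD8 T cells and by 0.29 (0.19 to 0.40) in CD4 T cells. It was higher in 11 of the 13 classes. Smad3 was higher by 0.46 (0.17 to 0.81) in B cells and by 0.52 (0.24 to 0.89) in CD8 T cells. Smad7 was lower in B cells, at -0.24 (-0.35 to -0.13).

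In CD8 T cells 2 of 8 genes passed the fold, where 4.71% of all genes did (2.35% higher and 2.35% lower). Tgfbr1 went from 14.4 to 22.3 CPM, a log2 ratio of 0.60 (0.38 to 0.88), and Itgb8 from 2.28 to 4.36 CPM, a log2 ratio of 0.71 (0.33 to 1.56). The median over the 8 genes was 0.22, against 0.03 over all genes tested in the class. Over joint clusters Tgfbr1 held 16.2 and 22.7 CPM and Itgb8 3.95 and 7.30 CPM. Over the alternatives the lowest log2 ratio was 0.46 for Tgfbr1 and 0.36 for Itgb8, both under the fold. By subset, Tgfbr1 had a ratio of 0.88 (0.36 to 1.51) with at most 1 naive marker. It had 0.25 (-0.17 to 0.69) in naive-like and 0.45 (0.04 to 0.92) in cycling cells. Itgb8 had 0.41, 1.00 and 0.71 in that order, on at most 15 UMIs per library. No share of all genes was taken there.

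Macrophages had the most, with 5 of 8 genes higher and none lower, where 21.4% of all genes passed (12.4% higher and 8.99% lower). Tgfbr1 stood at 107 and 212 CPM, a log2 ratio of 0.98 (0.67 to 1.33), and was found in 11.4% and 31.0% of thinned cells. Il10 had a ratio of 0.85 (0.32 to 1.46), Tgfbr2 of 0.72 (0.33 to 1.14) and Smad7 of 0.67 (0.23 to 1.15). Itgb8 had 0 UMIs against 26 UMIs (11.5 CPM), which is at least 3.33-fold higher than a floor of 3 counts in the WT NOD library. Tgfb1, Il10ra and Smad3 did not pass.

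These macrophage ratios rest on 77 and 182 cells and on how mixed barcodes are treated. With the macrophage cluster of the joint clustering in place of the gate (358 and 705 cells), the log2 ratio was 0.51 for Tgfbr1, 0.22 for Il10, 0.09 for Tgfbr2, 0.09 for Itgb8 and -0.19 for Smad7. Summed T-cell markers stood at 1992 and 1578 CPM in that cluster and at 39.0 and 52.0 CPM in the gated cells. With mixed barcodes counted as macrophages (256 and 533 cells) the ratios were 0.57, 0.40, 0.16, 0.00 and -0.14 in the same order. In the gated cells, summed B-cell markers stood at 50.5 and 122 CPM, plasma-cell markers at 131 and 356 CPM and endocrine markers at 6154 and 10570 CPM. Macrophage markers stood at 15723 and 20199 CPM and monocyte markers at 11305 and 8036 CPM. The part of these in the ratios was not tested. Tgfbr1 and Il10 were higher in the library labelled NOD.Cxcl16-/- under all 3 definitions, Tgfbr1 by at least 0.51. The set with mixed barcodes contains the gated cells, so the definitions are not independent. Under the cluster and mixed-barcode definitions none of these ratios reached 1.5-fold (log2 0.585). For Il10 the library intervals overlapped in the cluster (30.7 to 40.3 and 38.0 to 44.6 CPM). They also overlapped in the mixed barcodes alone. For Tgfbr1 they did not overlap in the cluster (76.5 to 91.2 and 114 to 125 CPM) or in those barcodes.

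**Figure D5:**
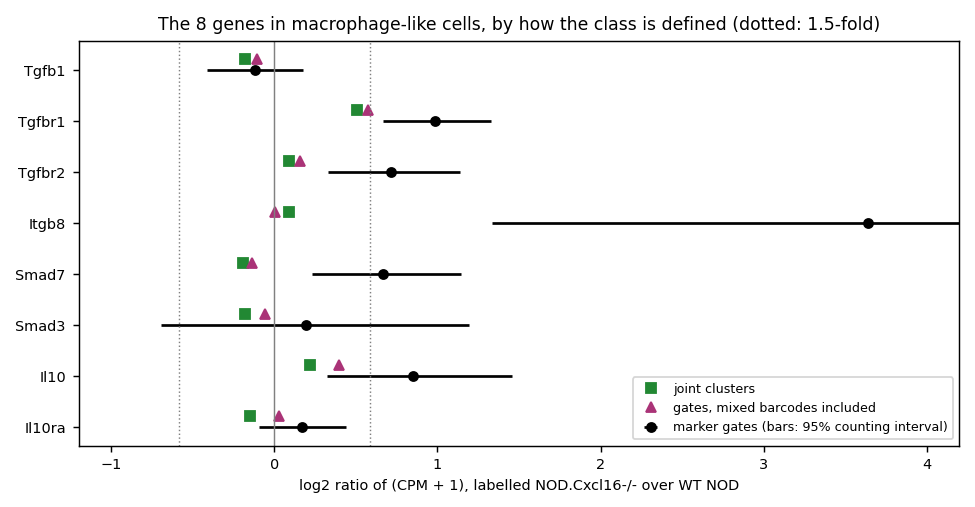
Log2 ratio (library labelled NOD.Cxcl16-/- over WT NOD, CPM + 1) of the 8 genes in macrophages under 3 definitions of the class. Horizontal bars are the 95% counting interval of the gated cells and the dotted lines mark 1.5-fold. Gated macrophages have 5 genes past the line, and under the other definitions Tgfbr1 is at 0.51 and 0.57 and Il10 at 0.22 and 0.40; the axis ends at 4.2 and the gated interval of Itgb8 has no upper bound.

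In the other classes with a gene past the fold, the UMIs behind it ranged widely. In cDC1 3 of 7 genes were higher (18.9% of all genes passed, 10.7% higher and 8.18% lower), with Tgfbr1 at 46.6 and 73.9 CPM (56 and 152 UMIs; log2 ratio 0.65, 0.21 to 1.13), Smad3 at 4 and 20 UMIs, and Il10 at 3 and 29 UMIs, of which 22 lay in 1 cell. Over joint clusters cDC1 (136 and 188 cells) held 52.9 and 67.6 CPM of Tgfbr1, and its log2 ratio ranged from -0.63 to 0.85 over the alternatives. Summed macrophage markers stood at 94.9 and 787 CPM in gated cDC1, B-cell markers at 2.5 and 129 CPM and endocrine markers at 247 and 523 CPM, and their part was not tested. In cDC2, 1 gene was higher (Smad3, 4 and 17 UMIs) and 1 lower (Il10, 9 and 12 UMIs) of 7, where 18.4% of all genes passed (10.0% and 8.37%). In migratory DC 1 of 7 was lower (Itgb8, 13 and 11 UMIs; 21.9% of all genes, 13.5% higher and 8.36% lower).

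Plasma cells had 2 higher and 1 lower of 6 genes, where 18.4% of all genes passed (11.7% and 6.63%). Il10 stood at 28.6 and 17.7 CPM there (51 and 51 UMIs; log2 ratio -0.67, -1.28 to -0.11), Smad7 at 15.7 and 24.3 CPM and Il10ra at 9 and 25 UMIs. In gamma-delta T cells 1 of 5 was lower (24.6% of all genes, 15.7% higher and 8.93% lower), namely Smad7, on 204 and 99 UMIs, with a log2 ratio of -0.63 (-0.99 to -0.28). Over joint clusters (107 and 108 gamma-delta T cells) Smad7 held 270 and 222 CPM. Its log2 ratio ranged from -0.88 to -0.28 over the alternatives, so passing the fold depended on the setting. The 1 gene each of migratory DC and gamma-delta T cells is close to the share of all genes.

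The wider pathways were read from 8 lists that hold 92 genes. In Treg cells the list of TGF-beta family receptors had 2 of 4 measured genes higher, both BMP receptors, with Bmpr2 at 78.6 and 126 CPM (log2 ratio 0.67, 0.41 to 0.95) and Bmpr1a at 8 and 33 UMIs. Of 10 measured genes known as TGF-beta targets 1 was lower, Id3, an inhibitor of E proteins, at 24.2 and 7.86 CPM (-1.51, -2.37 to -0.90). Of 10 regulators of Il10, 2 were lower, namely Jun, a subunit of AP-1, at 163 and 84.0 CPM (-0.95) and Zfp36, which destabilises cytokine mRNAs, at 111 and 60.2 CPM (-0.87). The list of Il10 signalling and known responders had 3 of 13 lower, among them Tyk2 (-0.84) and Nfkbid (-1.11). The remaining lists had 0 of 2 ligands and latency proteins, 0 of 5 activators, 1 of 15 SMADs and co-factors (Smad1, lower) and 1 of 3 genes of the interleukin-10 family (Ebi3, lower). The counting intervals of Smad1 (17 and 14 UMIs) and Ebi3 (17 and 17 UMIs) held 0. The share of all genes past the fold in Treg cells is the 11.0% given above.

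In macrophages, where 21.4% of all genes passed (12.4% higher and 8.99% lower), 10 of 65 measured listings were higher and 3 lower. The activator list had 2 of 6 higher and 1 lower. Plau, which encodes urokinase, stood at 49.3 and 130 CPM (log2 ratio 1.39, 0.94 to 1.90) and Itgb5, another partner of alpha V, at 94.1 and 181 CPM (0.93), while Mmp14, a membrane protease, stood at 280 and 149 CPM (-0.90). Of 12 measured TGF-beta targets 3 were higher. They were Pmepa1, a feedback inhibitor, at 60.8 and 201 CPM (1.71, 1.31 to 2.16), Ldlrad4 at 74.6 and 117 CPM (0.65), and Itgae, the alpha E integrin chain, at 3 and 36 UMIs. Pmepa1 and Ldlrad4 also stand among the 15 SMADs and co-factors, where Smad2 (-0.63) and Smad5 (-1.21) were lower. Smad5 had only 10 and 10 UMIs, and its interval held 0 (-2.80 to 0.04). Of 10 regulators of Il10, Irf4 (1.57) and Prdm1 (0.70) were higher, and of 13 Il10 responders 1 was, the haem-degrading enzyme gene Hmox1, at 47.1 and 120 CPM (1.33). None of 5 receptors and none of 3 genes of the interleukin-10 family passed.

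CD8 T cells had 4 of 70 measured listings higher, 1 in each of 4 lists, and none lower, where 4.71% of all genes passed (2.35% higher). Ahr, a ligand-activated transcription factor, stood at 19.4 and 43.2 CPM (log2 ratio 1.11, 0.96 to 1.35) and Itgav at 46.4 and 74.9 CPM (0.68, 0.55 to 0.83), next to the higher Itgb8 of this class. The activin receptor gene Acvr2a (0.88) and Smad1 (0.83) were the others. In CD4 T cells 3 of 71 measured listings were higher and 5 lower, where 6.15% of all genes passed, and Acvr2a stood at 24.7 and 40.2 CPM (0.68) and Itgae at 13.9 and 7.31 CPM (-0.85). In B cells 3 of 66 measured listings passed, where 6.21% of all genes did, among them Il12a, the p35 chain shared by IL-12 and IL-35, at 31.9 and 20.5 CPM (-0.61).

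By a fixed rule, the genes most like each of the 8 in pattern were found by the Pearson correlation of log2 levels over the 26 class levels (13 classes in each of 2 libraries) among 11949 genes. Tgfb1 was most like Ptprc, the pan-leukocyte CD45 gene (0.95), and Smad7 like Calm2 (0.97). Tgfbr1 was most like P2ry13 (0.86), Tgfbr2 like Rasa3 (0.93), Smad3 like Mgat5 (0.94) and Il10ra like Nckap1l (0.92). Itgb8 was most like C2cd4b (0.90), and Il10 like Pex11a (0.82). Ecm1 came next for both Itgb8 (0.88) and Il10 (0.76), which had a correlation of 0.63 with each other. The points share libraries and depth, so these are descriptions.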

How the data were processed

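Single-cell RNA sequencing of sorted islet leukocytes gave 2 libraries. Values are unnormalised UMI counts for each gene in each barcode, deposited as made by the authors with Cell Ranger 7.0.1 on mm10, per the submitters' processing notes; whether intronic reads were counted is not given in the sources used here. The libraries held 13859 and 10554 barcodes with 93553185 and 98681133 UMIs.

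Barcodes under 500 genes (1582 and 311) or over 10% mitochondrial UMIs (53 and 84) were left out, as were the 1537 and 891 with the highest scores against simulated doublets; that number is set by the number of barcodes. Cells were gated by markers, 9182 and 7837 into classes; 862 and 718 met no gate. Gate thresholds were set after class sizes, marker rates and, in a first version, levels of the 8 genes had been seen. Members and lists were chosen with earlier results of these data known. Pathway genes named between libraries are those past 1.5-fold with at least 20 UMIs.

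UMIs were summed per class and library and scaled to CPM. CPM carry exact Poisson, shares Clopper-Pearson and ratios exact conditional intervals, all for counting error only. Shares were taken after thinning cells to 2000 UMIs. Ratios add 1 CPM. Of the gene IDs, 32235 occur in GENCODE M21. Python 3.11.15, numpy 2.4.6, scipy 1.17.1, pandas 2.3.3 and scanpy 1.11.5 were used, and the steps were tested on simulated counts. Alternatives were joint Leiden clusters, other gates, filters, thinning and folds.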

Additional observations from a re-analysis of the deposited data

How the results depend on the processing

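Of 1148 ratios of the 8 genes recomputed under 13 alternatives, 1085 stayed within the counting interval of the reported value. The sign was the other one in 103, of which 75 were among these 1085. The cause was not tested. The total pools alternatives that altered the ratios to unlike degrees. All 90 stayed within the interval with either other pseudocount, and also with doublets kept. With joint clusters 58 stayed, and 15 (counted as moved) and 2 (as reversed) did not. With cells thinned 63 stayed, and 25 and 2 did not. With joint clusters in place of gates the log2 ratio in macrophages was 0.51 for Tgfbr1, 0.091 for Tgfbr2, 0.087 for Itgb8, -0.19 for Smad7 and 0.22 for Il10. In plasma cells it was -0.30 for Smad7 and -0.091 for Il10, and in cDC1 0.0037 for Il10. With mixed barcodes counted as myeloid, an alternative added after seeing the data, it was 0.57 for Tgfbr1, 0.16 for Tgfbr2, 0.0046 for Itgb8 and -0.14 for Smad7 in macrophages, 0.41 and 0.14 for Il10 in cDC1 and cDC2, and 0.43 for Itgb8 in migratory DC. Thinned to 2000 UMIs it was 1.79 for Tgfbr1 and 1.88 for Tgfbr2 in macrophages, -0.63 for Tgfbr1 in cDC1, 3.00 for Smad3 and 0.00 for Il10 in cDC2, and -3.54 for Itgb8 in migratory DC. The mean CPM per cell gave 0.023 for Itgb8 in migratory DC. Levels over joint clusters, splitting the CD4 T class by the Treg cluster and describing Il10 and Itgb8 cells in more classes were also added after seeing the data.

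Genes past 1.5-fold numbered 1080 in Treg cells and 1807 in macrophages. These counts became 271 and 606 at 2-fold, 4070 and 5160 with no minimum count, and 202 and 420 with at least 100 UMIs. Migratory DC had no joint cluster, and cDC2 had under 50 cells when 1 more marker was required, so no value could be given there. No paired analysis was possible because each group is 1 library. In classes under 100 cells per library, ratios rest on few UMIs.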
